A study of Mus musculus with 3 samples.

Results

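RP2 is one of 9 clusters that the submitters defined among macrophages sorted from injured mouse muscle, and its 736 cells were taken as the cells carrying that cluster name in the deposited cell annotation, out of 4374 cells in all. The macrophages came from the quadriceps, taken 1 week after surgery for volumetric muscle loss, in which part of the muscle is cut out. Each wound had received urinary bladder matrix (UBM, a decellularised extracellular matrix scaffold), polycaprolactone (PCL, a synthetic polyester) or saline, and each of the 3 treatments is represented by 1 library of droplet-based single-cell RNA sequencing. No strain, age, genotype or number of mice per library is given in the labels, so it is not known whether cells of 1 library came from 1 mouse or a pool. With 1 library per treatment there is no replicate and no test of treatment, and because the clustering used the same counts, RP2 against other cells is likewise a description. All intervals below are 95% intervals that cover counting error only, since the cells of a library are not independent replicates.

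Macrophages in damaged tissue engulf dying cells and debris, and a part of them turns on genes for taking up, storing and breaking down lipid. Trem2 is a surface receptor that binds lipids and signals through its partner Tyrobp, and Lpl, lipoprotein lipase, releases fatty acids from lipoproteins. Together with lysosomal proteases and lipid chaperones they are the usual marks of lipid-associated macrophages in fat, arteries and regenerating tissue.

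RP2 made up 28.1% of the UBM library (640 of 2280 cells, interval 26.2 to 30.0%), 3.31% of the PCL library (58 of 1753 cells, 2.52 to 4.26%) and 11.1% of the saline library (38 of 341 cells, 8.01 to 14.97%). When each cell was instead given to the cluster whose summed profile over all libraries fitted it best, RP2 was 24.4% of UBM, 0.685% of PCL and 1.47% of saline cells. Profiles built within each library without the 7 marker genes, a setting chosen after seeing the data, put RP2 at 23.2% of UBM and 4.56% of PCL cells. In saline, 22 of 38 RP2 cells and 12 of 303 other cells then fitted RP2 best. The PCL and saline shares by profile thus depended on which cells the profiles were built from. As deposited, UBM cells were 87.0% of the cluster, and any value over the whole of RP2 is mostly a UBM value. The median RP2 cell held 5383 unique molecular identifiers (UMIs, counted transcript molecules) in the UBM library, 4834.5 in PCL and 4278 in saline, against 5527.5, 5668 and 4716 in the other cells of the same libraries. The median share of mitochondrial UMIs in RP2 was 2.21%, 3.73% and 3.64% in UBM, PCL and saline, and 8 RP2 cells in all exceeded 10%. In the PCL and saline libraries a single large cell often supplied over 10% of the RP2 UMIs of a gene, and 6 barcodes occurred in 2 libraries, 2 of them on RP2 cells. Whether the sort, the digestion or cell survival set the share of RP2 in a library was not tested.

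Levels below are counts per 1000000 UMIs (CPM) of all cells of a group summed. A gene was called higher or lower against other cells when its ratio after adding 10 CPM to both sides was at least 1.5-fold, with at least 50 CPM on the higher side, or at least 200 CPM in the saline and PCL libraries, which hold few RP2 cells. Mitochondrial and ribosomal protein genes were left out. Within the UBM library, 72 of 2381 genes were higher in RP2 (3.02%) and 148 were lower (6.22%). Scaling by a trimmed mean in place of the total gave 90 higher and 120 lower genes. In the sum of the 3 libraries 71 of 2496 genes were higher (2.84%) and 256 were lower (10.3%), and trimmed-mean scaling gave 146 and 174, with the median gene moving from a log2 ratio of -0.11 to 0.00. That sum sets mostly UBM cells against a mixture of treatments, so the comparisons within a library carry the description.

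As macrophages, the RP2 cells carried the broad identity genes at levels close to those of the other UBM cells. The 14 genes of a macrophage core list, among them Csf1r, Cd68, Adgre1 and the C1q chains, summed to 18277 CPM in RP2 and 19825 CPM in other UBM cells, and Aif1 was the 1 gene past the 1.5-fold line (152 against 274 CPM). Markers of other cell types were mostly low. In UBM, neutrophil markers summed to 74.2 CPM in RP2 and 135 CPM in other cells over 10 genes, fibroblast markers to 29.9 and 46.2 CPM over 12 genes, muscle-fibre markers to 14.2 and 61.7 CPM over 11 genes, and erythroid markers to 2.83 and 3.74 CPM over 4 genes. Exceptions were Irf8, a factor of dendritic cells that macrophages also make, at 151 and 144 CPM, the interleukin-7 receptor Il7r at 64.9 and 39.0 CPM, and the eosinophil chemokine receptor Ccr3 at 10.0 and 1.68 CPM, of which Il7r and Ccr3 were past the 1.5-fold line. Monocyte markers were lower in RP2, at 1897 CPM against 3021 CPM over 12 genes, with 6 of the 9 measured members past the line, where 4.15% of all genes above 10 CPM were called lower.

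The 7 genes given as markers of RP2 were led within UBM by Clec12a, an inhibitory lectin receptor of myeloid cells. It stood at 260 CPM in RP2 and 100.2 CPM in other UBM cells, a ratio of 2.60 (2.38 to 2.83). Pmp22, a membrane protein best known from myelin, had 310.0 CPM in RP2 and 160.3 CPM in other cells, a ratio of 1.93 (1.79 to 2.08). Lpl had 1894 against 999 CPM, a ratio of 1.89 (1.84 to 1.95), and Trem2 1279 against 759 CPM, a ratio of 1.68 (1.63 to 1.74). Syngr1, a vesicle membrane protein, lay just inside the line at 134 against 86.1 CPM, a log2 ratio of 0.59 after adding 10 CPM. Igf1, the growth factor that acts on muscle progenitors, did not reach it at 796 against 637 CPM (1.25-fold, 1.20 to 1.30), and neither did Atp6v0d2, a macrophage and osteoclast subunit of the proton pump of lysosomes, at 161 against 131 CPM (1.23-fold, 1.11 to 1.35). So 5 of the 7 markers passed the line, where 1.39% of all genes above 10 CPM were called higher by the same rule. The 7 genes were given as markers of this cluster with earlier results of these data known. Their count is therefore a description and gives no support to the cluster or its name.

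**Figure D1:**
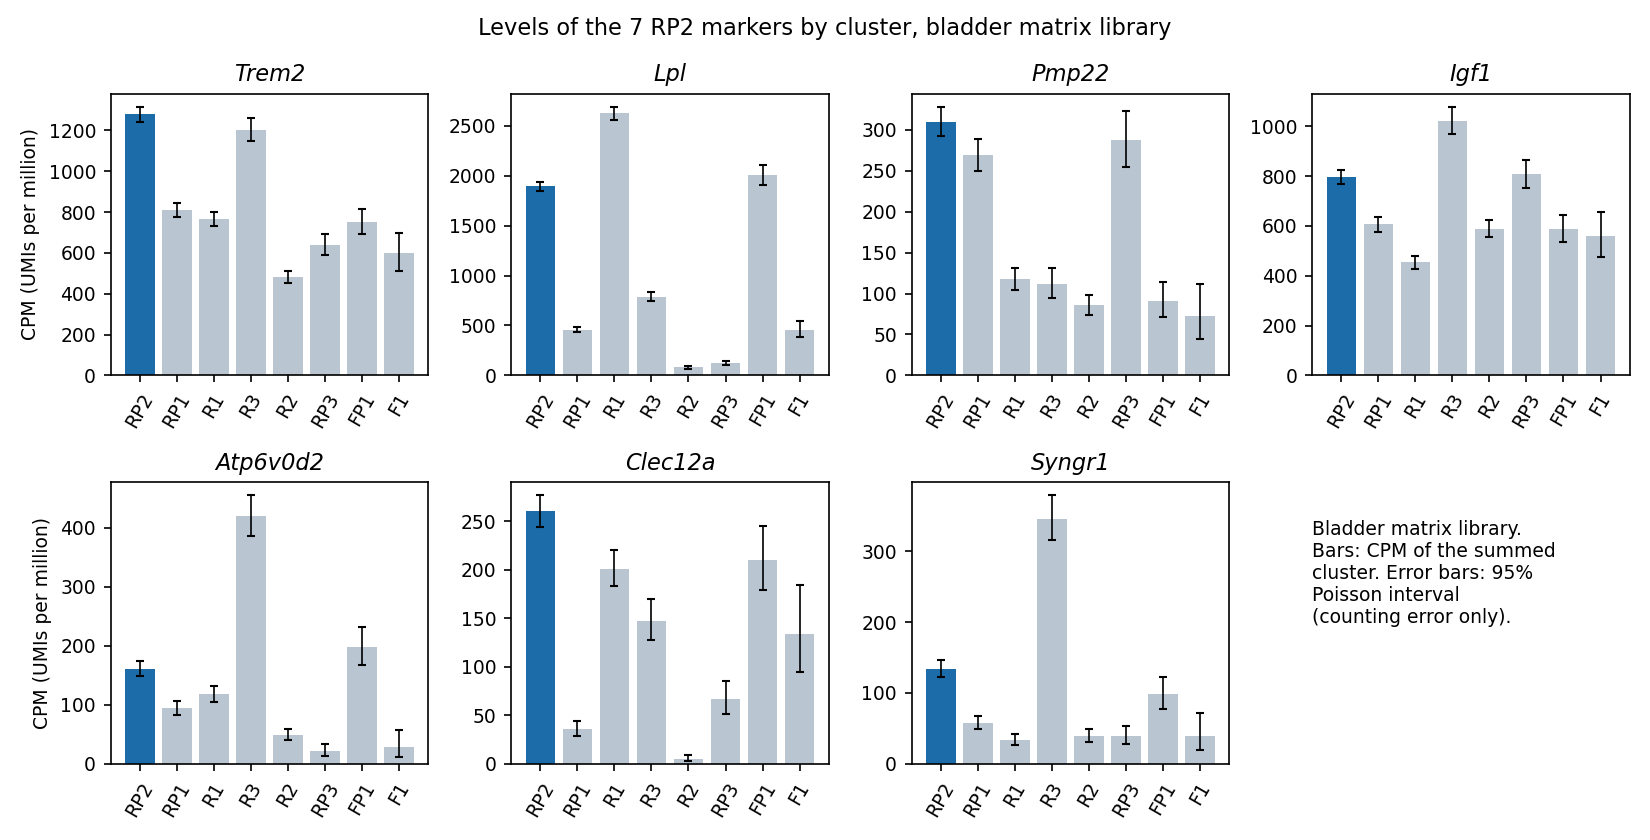
CPM of the 7 RP2 markers (vertical axes, linear, each with its own range) in the 8 clusters with enough UBM cells, RP2 first and in dark blue; bars are the summed cluster and error bars 95% Poisson intervals for counting error only. RP2 has the highest bar for Trem2, Pmp22 and Clec12a, while R1 exceeds it for Lpl and R3 exceeds it for Igf1, Atp6v0d2 and Syngr1.

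Cluster by cluster, most of these markers were shared with 1 or more neighbours. RP2 ranked first of the 8 UBM clusters compared for Trem2, Pmp22 and Clec12a. Trem2 in R3 was close behind at 1203 CPM (1146 to 1263 in R3, 1243 to 1315 in RP2), a ratio of 1.06 (1.01 to 1.12). Lpl was higher in R1 at 2624 CPM and in FP1 at 2008 CPM than in RP2 at 1894 CPM, and lay between 80.4 CPM in R2 and 787 CPM in R3 elsewhere. Atp6v0d2 reached 161 CPM in RP2 against 419 CPM in R3, and Syngr1 134 CPM against 346 CPM, so both were lower in RP2 than in R3 by 2.60-fold and 2.58-fold. RP2 was thus marked by a combination of genes, each of which another cluster carried as well or nearly as well.

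The markers were then counted cell by cell. With every cell reduced at random to 2500 UMIs (thinned), which dropped 29 of 640 RP2 cells and 133 of 1640 other UBM cells, the median UBM RP2 cell held UMIs of 4 of the 7 markers and the median other cell of 2. At least 4 markers were seen in 60.6% of RP2 cells and in 22.9% of other UBM cells, but also in 52.9% of R3 cells. In PCL the shares were 38.5% of 52 RP2 cells and 9.63% of other cells, and in saline 44.8% of 29 RP2 cells and 7.30% of other cells. No marker was universal. Trem2 was seen in 91.8% of thinned UBM RP2 cells and 70.1% of other cells, Lpl in 75.3% and 38.6%, Igf1 in 75.9% and 64.4%, Pmp22 in 49.6% and 30.1%, Clec12a in 40.1% and 14.9%, Syngr1 in 26.2% and 13.6%, and Atp6v0d2 in 23.9% and 17.3%. Without thinning the shares for Trem2 were 97.8% and 83.0%, and for Lpl 83.1% and 47.9%.

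Free RNA in droplets gives such UMIs to cells that do not make a transcript, and the F2 cluster, marked by neutrophil genes, was used as a gauge. In its 43 thinned cells from all libraries Trem2 was seen in 34.9% and Lpl in 39.5%, Igf1 in 27.9%, Clec12a in 25.6%, Pmp22 in 11.6%, Syngr1 in 9.30% and Atp6v0d2 in 2.33%. Over all 56 F2 cells without thinning (median depth 4345.5 UMIs) Trem2 was seen in 66.1% and Lpl in 39.3%. Of the 43 thinned cells 33 came from the PCL library, so the gauge is mostly not a UBM one. It also cannot separate free RNA from transcripts that F2 cells may make, as for Clec12a, a receptor of myeloid cells. By summed profile, 2 of 8 UBM F2 cells fitted RP2 best. The UBM RP2 shares of all 7 markers stood above those of F2. The pooled shares of other UBM cells for Lpl and Clec12a did not, although the levels of single clusters such as R1 and FP1, given above, were close to or above that of RP2. For these genes the gauge cannot tell whether other UBM cells make them. RP2 cells differed among themselves: Lpl ran from a lower quartile of 1 UMI through a median of 2 to an upper quartile of 6 and a maximum of 31 among thinned UBM cells, and Trem2 ran from a lower quartile of 1 through a median of 3 to an upper quartile of 5.

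**Figure D2:**
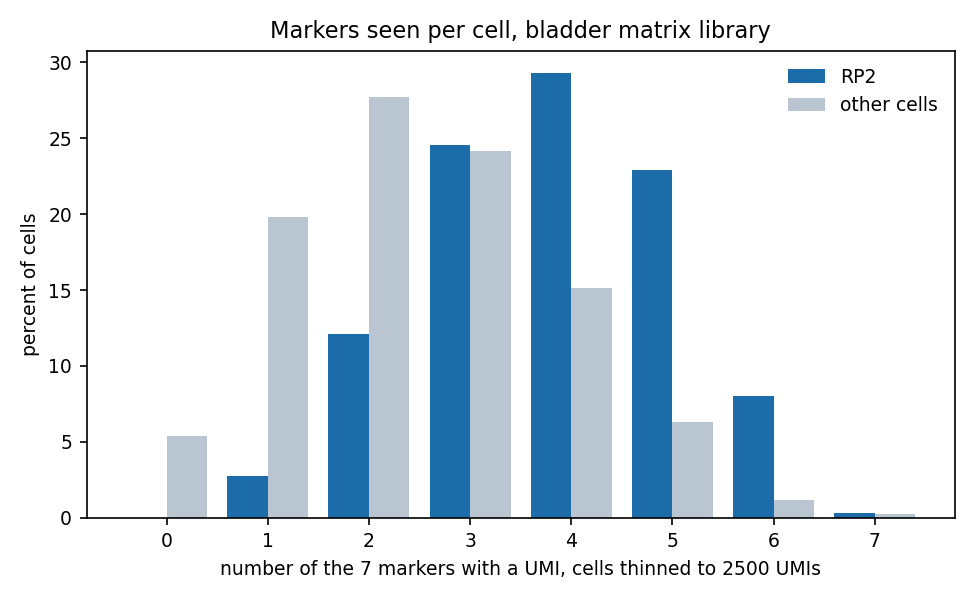
Percent of cells (vertical axis) by the number of the 7 markers with at least 1 UMI after thinning to 2500 UMIs (horizontal axis), UBM library, RP2 dark blue and other cells light. RP2 peaks at 4 markers with 29.3% of its cells, other cells at 2 markers with 27.7%.

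Beyond the given markers, the 15 genes furthest above other UBM cells were Cd72, Clec12a, Cd5l, Ifi27l2a, Cd93, Ccnd1, Itga6, Cd36, Osbpl8, Cxcl1, Cdk6, Glipr1, C5ar1, Stap1 and Lpl. Cd72, an inhibitory receptor of the C-type lectin family, had 252 CPM in RP2 and 93.2 CPM in other cells (2.70-fold, 2.47 to 2.95). Cd36, the scavenger receptor that carries fatty acids and oxidised lipoprotein into macrophages, had 1013 and 473 CPM (2.14-fold, 2.05 to 2.23). RP2 was the highest of the 8 UBM clusters for both, with R1 next for Cd72 at 189 CPM and FP1 next for Cd36 at 895 CPM. Cd93, a receptor linked to the clearance of dying cells, had 154 CPM in RP2 and 62.7 CPM in other cells, and C5ar1, the receptor for complement fragment C5a, 487 and 245 CPM. Cxcl1, a chemokine that attracts neutrophils, had 676 and 322 CPM, though R1 held more at 860 CPM. Cd5l, a secreted scavenger protein of tissue macrophages, had 121 and 43.6 CPM, but it was seen in 10.5% of thinned RP2 cells only and stood at 113 CPM in RP1. Ccnd1 and Cdk6, a cyclin and its kinase that act early in the cell cycle, stood at 67.0 and 115 CPM in RP2 against 24.8 and 52.3 CPM in other cells. Of 19 measured cell cycle genes, mostly of replication and mitosis, 2 were higher (the replication helicase subunit Mcm6 and Stmn1) and none lower, beside 1.39% of all genes above 10 CPM called higher, and the list median was a log2 ratio of 0.03.

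**Figure D3:**
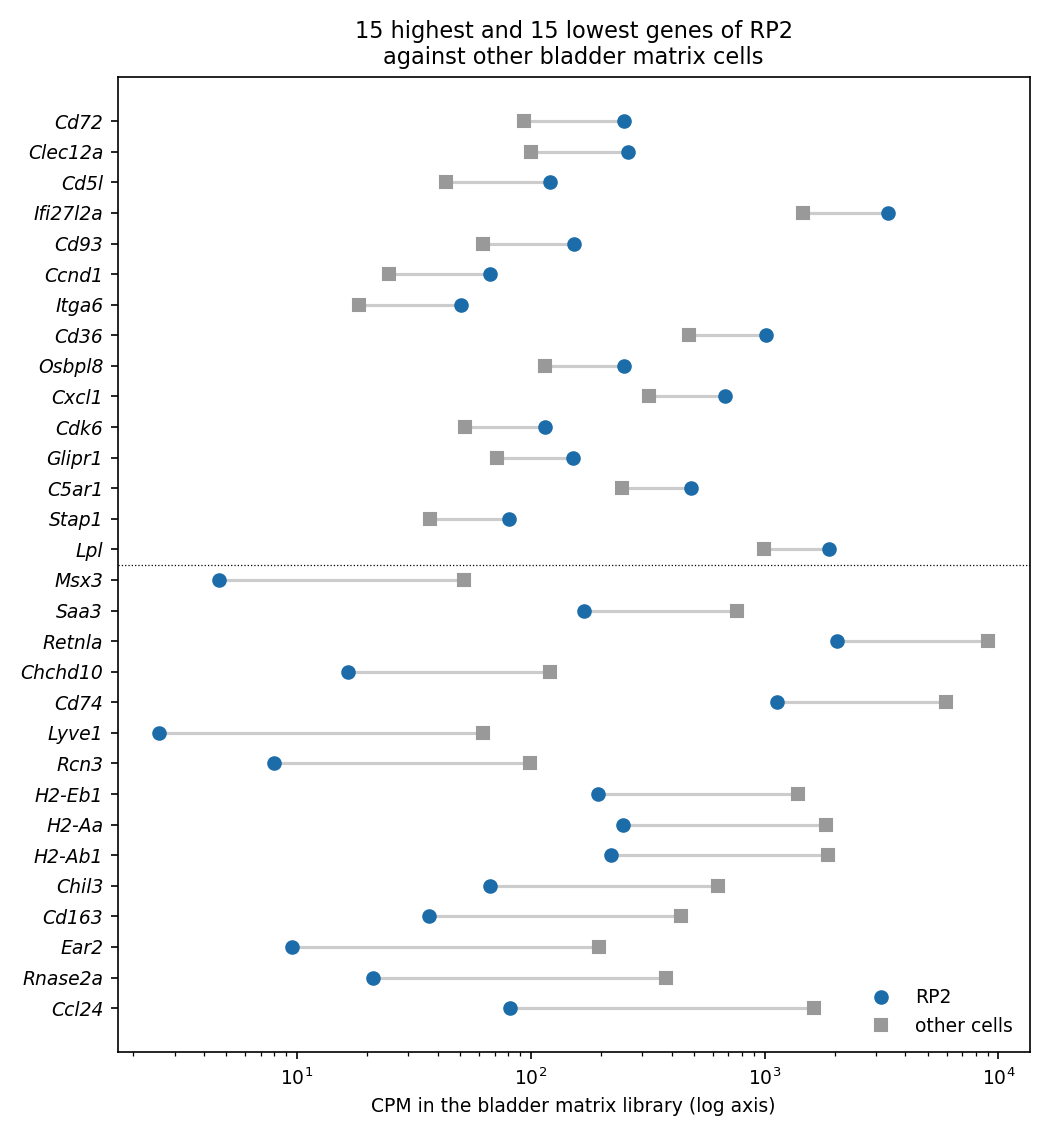
CPM (log axis) of the 15 highest and 15 lowest genes of RP2 (blue circles) against other UBM cells (grey squares), joined by a line for each gene and divided by a dotted line. The highest genes differ by 1.89 to 2.76-fold, while the lowest differ by 4.44 to 24.2-fold.

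The genes below other UBM cells differed by more. Ccl24, a chemokine for eosinophils, had 81.4 CPM in RP2 against 1620 CPM in other cells, 19.9-fold lower (17.8 to 22.3), and 1 RP2 cell held 17.4% of its RP2 UMIs. Cd163, the haemoglobin scavenger receptor of resident macrophages, had 36.6 against 439 CPM, 12.0-fold lower. By cluster, R2 held 5847 CPM of Ccl24 and 1683 CPM of Cd163. RP2 was the lowest of the 8 UBM clusters for Ccl24, with RP1 next at 137 CPM. For Cd163 it ranked 5 of 8, and R3 was lowest at 7.28 CPM. Rnase2a and Ear2, secreted ribonucleases, had 21.1 and 9.53 CPM in RP2 against 380 and 197 CPM in other cells, with 30.5% and 35.1% of their RP2 UMIs in 1 cell. Both belong to a family of closely similar genes, between which reads may have been split or lost in counting. Lyve1, the hyaluronan receptor of perivascular macrophages, had 10 UMIs in all UBM RP2 cells, or 2.58 against 62.4 CPM. Retnla, a secreted product of alternatively activated macrophages, had 2038 against 9053 CPM, and 1 cell held 14.5% of the RP2 UMIs. RP3 held 23642 CPM of Retnla and RP1 528 CPM, so RP2 was not the lowest cluster for it. Chil3, Saa3, Rcn3, Chchd10 and Msx3 completed the 15 together with 4 genes of antigen presentation.

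Those 4 were H2-Ab1, H2-Aa, H2-Eb1 and Cd74, the chains of the class II MHC molecule that displays peptides to helper T cells and the chaperone that guides it. H2-Ab1 had 221 CPM in RP2 and 1860 CPM in other UBM cells, 8.40-fold lower (7.85 to 9.01), H2-Aa 248 and 1828 CPM, H2-Eb1 194 and 1387 CPM, and Cd74 1132 and 5995 CPM. Of the 8 measured genes of the class II presentation list 7 were lower, namely 6 class II or loading genes and the costimulator Cd86, and the costimulator Cd40 was not called, with a list median of -2.20 on the log2 scale, where 4.15% of all genes above 10 CPM were called lower and the median gene was at -0.04. RP2 was not the lowest UBM cluster for these genes. H2-Ab1 was 150 CPM in RP1 and 4207 CPM in R1, so RP2 sat at the low end of a range that its neighbour R1 topped.

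A list of 34 genes for lipid uptake, storage and efflux did not move as a whole within UBM. Of its 28 measured members 4 were higher, Lpl, Cd36, the scavenger receptor Msr1 (145 against 86.8 CPM) and the lipoprotein receptor Lrp1 (281 against 159 CPM). Ch25h, an enzyme that hydroxylates cholesterol (10.3 against 26.4 CPM), was among the members called lower. The list median was -0.02. Of all genes above 10 CPM in this comparison, 1.39% were called higher and 4.15% lower. The lipid droplet coat gene Plin2 stood at 485 against 397 CPM, lysosomal acid lipase Lipa at 223 against 151 CPM, the cholesterol exporters Abca1 at 282 against 235 CPM and Abcg1 at 57.2 against 73.6 CPM, and Apoe, the gene of apolipoprotein E, at 8338 against 9789 CPM, none of them past the line. Of 10 measured cholesterol synthesis genes 4 were lower, and of 18 genes of fatty acid oxidation none was called either way. The lipid-handling name therefore rested within UBM on Trem2, Lpl, Cd36, Msr1 and Lrp1, not on the list as a whole, and the cells are called RP2 here.

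Around the receptor itself the picture was narrow, read beside 1.39% of all genes above 10 CPM called higher and 4.15% called lower. Of 14 measured genes of Trem2 and Tyrobp signalling, Trem2 was higher and Ms4a4a and Ms4a6b were lower, while the adaptor Tyrobp stood at 2808 CPM in RP2 and 2228 CPM in other UBM cells and the kinase Syk at 74.7 and 80.1 CPM. Of 31 measured genes of a lipid-associated macrophage signature, Trem2, Lpl, Cd36 and Syngr1 were higher and Itgax, Axl and Dcstamp were lower, with a median of 0.18. Gpnmb, Spp1, Cd9 and Fabp5, which are commonly used to name such cells, stood at 473, 1922, 301 and 1544 CPM in RP2 against 347, 1697, 313 and 1722 CPM in other UBM cells. None of the 16 measured subunits of the vacuolar ATPase and none of 43 lysosomal genes was higher, and the protease Ctsc was the 1 lysosomal gene called lower (348 against 619 CPM).

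Lists for alternative activation and for protein folding were lower in RP2, read beside 4.15% of all genes above 10 CPM called lower and 1.39% called higher. Of 15 measured genes of alternative activation 11 were lower and none higher (median -1.10). They included Chil3, a chitinase-like lectin (66.7 against 634 CPM), and Mgl2, a galactose lectin (137 against 458 CPM), while Arg1, the enzyme that splits arginine, stood at 2462 against 3159 CPM and did not pass. Of 17 genes of the amino-acid and ER stress response 12 were lower (median -0.75), among them the chaperones Hspa5 (277 against 525 CPM) and Hsp90b1 (325 against 584 CPM) and the disulfide isomerase Pdia4 (125 against 265 CPM). Of 17 resident macrophage genes 9 were lower, but Folr2, the folate receptor, was higher at 777 against 467 CPM, and so was Pf4, a platelet-type chemokine, at 9117 against 5242 CPM. Of 19 handling-stress genes 4 were lower, namely Egr1, Egr2, Ier2 and Ier3, and none higher (median -0.17).

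RP2 was most alike to RP1, R1 and R3 among the UBM clusters with at least 100 cells, by a Pearson correlation of log2 CPM across 3009 genes of 0.94, 0.92 and 0.89, and these are descriptions across genes within 1 library. FP1, with 99 UBM cells, and F1 and F2 fell under that minimum, so their correlation was not taken. By summed profile, 26 of 99 UBM FP1 cells fitted RP2 best. The figures were 42 of 289 in R1, 10 of 173 in R3 and 11 of 574 in RP1. Against RP1, 200 of 2398 genes were higher in RP2 (8.34%) and 194 lower (8.09%). The highest was Stmn1, a regulator of microtubules, at 155 CPM in RP2 and 15.7 CPM in RP1 (9.89-fold, 7.23 to 13.9), followed by Clec12a at 260 and 35.9 CPM, Ckb, a creatine kinase, at 149 and 17.6 CPM, Cd72, and Ccnd1 at 67.0 and 3.74 CPM. Lpl was 4.16-fold higher (3.92 to 4.43). The lowest were Saa3, an acute-phase protein, at 169 CPM in RP2 and 2521 CPM in RP1, and Chchd10, Chil3, Ero1l and Adm. Of these, Ero1l, an oxidase of the endoplasmic reticulum induced by low oxygen, stood at 105 against 707 CPM and Adm, adrenomedullin, at 13.4 against 117 CPM. The median UBM cell held 5383 UMIs in RP2 and 4249.5 in RP1. By list, 12 of 17 measured cell cycle genes were higher in RP2 than in RP1 (median 0.90, with 5.43% of genes called higher) and 13 of 26 glycolysis and hypoxia genes were lower (median -0.54, with 4.91% called lower). Leaving ribosomal protein genes and Malat1 out of the total gave 164 higher and 235 lower genes.

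Against R1, 195 of 2389 genes were higher (8.16%) and 211 lower (8.83%). RP2 held 4009 CPM of Ccl8, a monocyte and eosinophil chemokine, against 468 CPM in R1 (8.56-fold, 8.06 to 9.10), and 775 against 109 CPM of Ms4a7, a membrane protein of mature macrophages. The bridging molecule for dying cells Gas6 (163 against 18.6 CPM) and the scavenger receptor Stab1 (134 against 17.7 CPM) were also among the 5 highest, with Ppbp, of whose RP2 UMIs 30.6% came from 1 cell. The 5 lowest were Ear2, H2-Ab1, H2-Eb1, H2-Aa and the protease Gzma, with H2-Ab1 at 221 CPM in RP2 and 4207 CPM in R1, 19.0-fold lower (17.7 to 20.4). By list, 13 of 15 measured resident macrophage genes were higher in RP2 than in R1 (median 1.29, with 5.2% of genes called higher) and 9 of 10 genes of the class II presentation list were lower (median -3.10, with 6.64% called lower). The median UBM cell held 5383 UMIs in RP2 and 7461 in R1.

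Against R3, 252 of 2464 genes were higher (10.2%) and 310 lower (12.6%). Without ribosomal protein genes and Malat1 in the total, 344 were higher and 229 lower. Cxcl1 stood at 676 CPM in RP2 and 41.5 CPM in R3 (16.3-fold, 12.5 to 21.6), with Ankrd37, Cd5l, Ifi27l2a and Egln3 next. Ankrd37 and Egln3 are targets of the hypoxia response, at 182 against 10.9 CPM and 80.1 against 2.18 CPM, the last resting on 3 UMIs in R3 (ratio 36.7, 12.4 to 179). The lowest were Ear2, Acp5, the acid phosphatase of osteoclasts (41.2 against 757 CPM, 18.4-fold lower), H2-Ab1, H2-Aa and H2-Eb1. All 26 glycolysis and hypoxia genes were higher in RP2 than in R3 (median 1.49, with 6.95% of genes called higher). Lower were 15 of 30 measured genes of the lipid-associated signature and 17 of 43 lysosomal genes (medians -0.56 and -0.48, with 8.6% called lower). RP2 and R3 were thus close in Trem2 but lay apart on Lpl and Cxcl1 in one direction and on Acp5, Atp6v0d2 and Syngr1 in the other.

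The same contrast in the other libraries gave another picture of the lysosome. In saline 63 of 646 genes were higher in RP2 (9.75%) and 98 lower (15.2%), and in PCL 31 of 684 were higher (4.53%) and 62 lower (9.06%). Ctsd, the lysosomal protease cathepsin D, stood at 2953 CPM in RP2 and 2125 CPM in other cells of UBM, at 2756 and 1312 CPM in PCL, and at 4190 and 1380 CPM in saline. The ratio was 1.39 in UBM (1.36 to 1.42), 2.10 in PCL (1.96 to 2.24) and 3.04 in saline (2.80 to 3.28), where 1 RP2 cell held 17.1% of the UMIs. Gpnmb, a membrane glycoprotein of lysosome-rich macrophages, stood at 473 and 347 CPM in UBM, 397 and 167 CPM in PCL, and 659 and 307 CPM in saline. Fabp5, a fatty acid chaperone, was not higher in UBM at 1544 and 1722 CPM, but stood at 1508 and 864 CPM in PCL and at 1468 and 767 CPM in saline. The Fabp5 level of RP2 lay between 1468 and 1544 CPM in the 3 libraries, while that of the other cells ran from 767 to 1722 CPM. A single RP2 cell held 25.1% of the saline Fabp5 UMIs.

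Counted over lists, 14 of 30 measured lysosomal genes were higher and none lower in saline (median 0.49, with 9.54% of genes called higher), and 9 of 30 were higher and Ctsc lower in PCL (median 0.44, with 3.69% called higher). For the lipid-associated signature 18 of 27 were higher and Mmp12 lower in saline (median 0.77), and 13 of 27 were higher and none lower in PCL (median 0.48). The median of all genes was -0.08 in saline and -0.11 in PCL. Without the 3 saline RP2 cells of more than 3 times the median UMIs, the median of the signature in saline was 0.57. The class II presentation list was lower in both libraries too, by 6 of 7 measured genes in saline, Cd86 among them (median -0.69, with 17.2% of genes called lower) and 6 of 6 in PCL (median -2.08, with 10.1% called lower). In saline and PCL, RP2 had 5 of 14 and 5 of 13 measured macrophage core genes called higher, and monocyte markers summed to 1075 against 2404 CPM in saline and 2747 against 4990 CPM in PCL. Neutrophil markers in PCL summed to 243 against 1743 CPM and muscle-fibre markers in saline to 111 against 827 CPM. The part of these markers in the library differences was not tested.

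**Figure D4:**
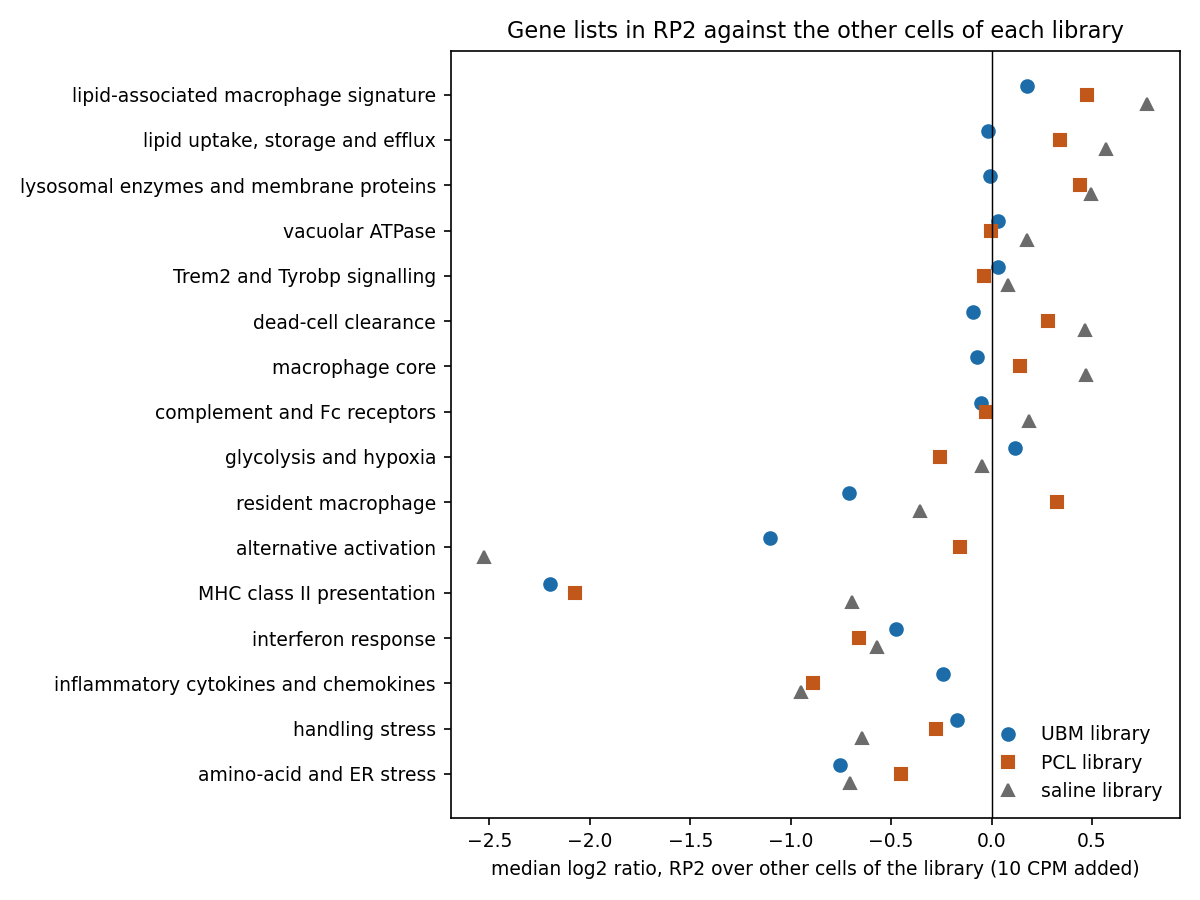
Median log2 ratio of RP2 over other cells after adding 10 CPM (horizontal axis) for 16 gene lists (vertical axis), 1 symbol per library (blue circle UBM, orange square PCL, grey triangle saline). The lipid-associated and lysosomal lists lie furthest right in saline (0.77 and 0.49) and near 0 in UBM (0.18 and -0.01), and the class II list is left of 0 in all 3. Medians are over members with at least 10 CPM on the higher side in UBM and at least 100 CPM in PCL and saline, so the genes compared differ between libraries.

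Among 566 genes above the minimum in all 3 libraries, 20 were higher in RP2 in UBM, 29 in PCL and 48 in saline. Trem2 was the 1 gene higher in all 3, at 1279 against 759 CPM in UBM, 853 against 413 CPM in PCL and 1129 against 375 CPM in saline, ratios of 1.68, 2.07 (1.83 to 2.33) and 3.01 (2.58 to 3.51). Among clusters with at least 20 cells in a library, RP2 ranked first for Trem2 in each, ahead of FP1 at 507 CPM in PCL and of R3 at 573 CPM in saline. Too small to be ranked were R3 (16 cells) and R1 (14 cells) in PCL and RP1 (13 cells) and F2 (3 cells) in saline. R3, close to RP2 for Trem2 in UBM, was therefore not compared in PCL. PCL and saline shared 18 higher genes, among them Ctsd, Ctsb, Hexa, Gpnmb, Fabp5 and Timp2, and of these Trem2 alone was also higher in UBM. More of the 566 genes were lower than higher, with 42 lower in UBM, 43 in PCL and 80 in saline. Lower in all 3 were 12 genes, namely Ccl12, Ccr2, Cd74, H2-Aa, H2-Ab1, H2-Eb1, Hspa5, Il1b, Ly6e, Sdf2l1, Srgn and Tgfbi. Ccr2, the chemokine receptor of recruited monocytes, stood at 34.8 against 99.5 CPM in UBM, 134 against 300.2 CPM in PCL and 121 against 410 CPM in saline.

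**Figure D5:**
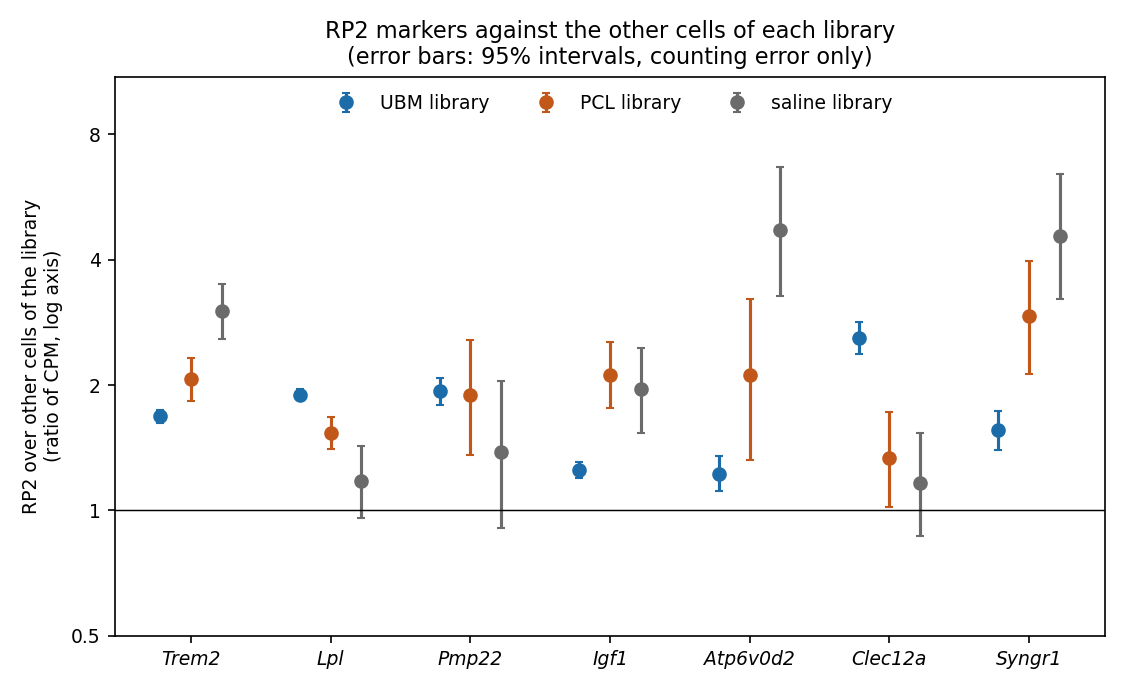
Ratio of CPM in RP2 over other cells of the same library (log axis) for the 7 markers, by library, with 95% intervals for counting error only; the line at 1 marks equal levels. Trem2 lies above 1 in all 3 libraries (1.68, 2.07 and 3.01), and Lpl falls to 1.17 in saline.

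The other markers were uneven. Lpl was 1.53-fold higher in PCL (1546 against 1009 CPM, 1.40 to 1.67), but its log2 ratio turned to -0.29 when membership was set by profile without the 7 markers, against 0.61 as deposited. It was 1.17-fold higher in saline (562 against 479 CPM, 0.958 to 1.43, an interval that takes in 1). Igf1 was 2.12-fold higher in PCL and 1.95-fold in saline. Atp6v0d2 and Syngr1 were highest relative to other cells in saline, at 252 against 53.5 CPM and 266 against 58.3 CPM. For Syngr1 1 RP2 cell held 32.7% of the UMIs, and without the large cells the log2 ratio was 1.49 in place of 2.02. For Atp6v0d2 1 of the other saline cells held 44.4% of their UMIs. Clec12a, the leading marker in UBM, was 1.34-fold in PCL (1.02 to 1.72) and 1.16-fold in saline (0.866 to 1.53).

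Promoter windows of 4 genes are shown because they stand for the shared pattern, Trem2 as the gene higher in all 3 libraries, Ctsd for the lysosomal genes higher in PCL and saline, and H2-Aa and H2-Eb1 for the class II genes lower in all 3. Each is the 250 bases before the start site in RefSeq, build GRCm38.p6, written 5′ to 3′ on the strand of the gene, at chr17:48346151-48346400 (plus) for Trem2, chr7:142387828-142388077 (minus) for Ctsd, chr17:34287824-34288073 (minus) for H2-Aa and chr17:34305617-34305866 (plus) for H2-Eb1. Capitals mark the motif searched, AGGTCA or its reverse complement TGACCT (a hexamer bound by nuclear receptors) in Trem2, CACGTG (an E-box, the core of the site of the lysosomal regulator TFEB) in Ctsd, and CTGATTGG (the Y box of class II promoters) in H2-Aa and H2-Eb1.
Trem2: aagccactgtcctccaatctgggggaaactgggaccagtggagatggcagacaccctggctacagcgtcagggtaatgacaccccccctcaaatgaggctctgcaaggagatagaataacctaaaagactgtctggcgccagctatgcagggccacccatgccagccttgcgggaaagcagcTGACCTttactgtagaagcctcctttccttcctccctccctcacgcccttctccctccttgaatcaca
Ctsd: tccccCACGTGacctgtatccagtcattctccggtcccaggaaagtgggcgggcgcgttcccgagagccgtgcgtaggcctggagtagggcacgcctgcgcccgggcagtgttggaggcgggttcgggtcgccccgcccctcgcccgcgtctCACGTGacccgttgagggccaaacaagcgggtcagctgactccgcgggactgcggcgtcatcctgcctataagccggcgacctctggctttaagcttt
H2-Aa: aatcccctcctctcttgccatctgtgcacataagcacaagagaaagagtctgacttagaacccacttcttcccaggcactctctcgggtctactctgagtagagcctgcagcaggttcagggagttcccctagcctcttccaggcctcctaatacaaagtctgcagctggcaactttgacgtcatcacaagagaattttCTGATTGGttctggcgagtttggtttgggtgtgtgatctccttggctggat
H2-Eb1: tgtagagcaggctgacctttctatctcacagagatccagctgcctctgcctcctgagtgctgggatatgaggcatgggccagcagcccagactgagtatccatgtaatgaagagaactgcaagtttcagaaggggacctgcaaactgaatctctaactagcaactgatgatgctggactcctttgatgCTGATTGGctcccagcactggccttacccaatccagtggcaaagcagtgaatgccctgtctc
In the Ctsd window CACGTG starts 98 and 245 bases before the start site, and the further copy overlaps a TGACCT. The Y box starts 51 bases before the start in H2-Aa and 62 bases before it in H2-Eb1, and TGACCT starts 68 bases before it in Trem2. Searched on both strands, CACGTG was in the windows of 10 of 34 lysosomal genes with an entry (29.4%), against 6.86% of 27025 genes. CTGATTGG (CCAATCAG) was in 3 of the 8 genes of the class II presentation list with an entry (37.5%), H2-Aa, H2-Eb1 and H2-Oa, against 4.43% of all. These 8 are not the 8 measured in UBM. H2-Oa, at 0.258 CPM in UBM RP2 cells and at most 3.71 CPM in another ranked UBM cluster, was not measured there, and H2-Ab1 had no entry. AGGTCA was in 3 of the 5 RP2 markers with an entry, Trem2, Igf1 and Syngr1, against 15.8% of all genes, and CACGTG in none of the 5. AGGTCA was also in 7 of the 34 lysosomal genes (20.6%), Ctsd among them. It was in 1 of 13 vacuolar ATPase genes (7.69%) and in 2 of the 8 class II genes (25%), H2-Eb1 and H2-DMb1. These matches describe letters in a window and do not show that a factor binds there.

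Within RP2 the treatments could be set side by side at 2-fold after adding 10 CPM, with at least 200 CPM on the higher side, on 640 UBM, 58 PCL and 38 saline cells. UBM against saline gave 57 of 657 genes higher (8.68%) and 59 lower (8.98%), or 70 and 46 with trimmed-mean scaling, which moved the median gene from a log2 ratio of 0.08 to 0.26. Arg1 was furthest above saline, at 2462 CPM in UBM RP2 cells against 19.4 CPM, or 4 UMIs, in saline RP2 cells (127-fold, 49.6 to 466). Mmp12, the macrophage elastase, stood at 902 against 82.3 CPM, Pf4 at 9117 against 1424 CPM and Retnla at 2038 against 339 CPM. Of 18 measured glycolysis and hypoxia genes 17 were at least 1.5-fold higher (median 1.75, beside 0.04 for all genes), where 15.7% of genes above 100 CPM were, among them lactate dehydrogenase Ldha at 901 against 320 CPM and Bnip3, a mitophagy gene of the hypoxia response, at 344 against 53.3 CPM. The class II genes lay the other way, all 6 measured being lower (median -3.34, with 19.3% of genes called lower), with H2-Ab1 at 221 CPM in UBM RP2 cells against 3318 CPM in saline RP2 cells, 14.99-fold lower (13.5 to 16.6).

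Lysosomal genes were also called lower more often than higher in UBM RP2 cells than in saline RP2 cells, with 13 of 30 lower and 1 higher, Ctsl. Of all genes above 100 CPM, 19.3% were called lower and 15.7% higher. The list median was -0.54, beside 0.04 for all genes. Apoe stood at 8338 against 29247 CPM. Lpl was 3.37-fold higher (1894 against 562 CPM, 2.81 to 4.08) and Cd36 3.87-fold higher (1013 against 262 CPM, 2.96 to 5.17). Trem2 stood at 1279 against 1129 CPM (1.13-fold, 0.993 to 1.30). Among genes of alternative activation above 100 CPM in both groups, the mannose receptor Mrc1 stood at 914 against 339 CPM, fibronectin Fn1 at 856 against 354 CPM and the transcription factor Klf4 at 267 against 165 CPM. Genes above the minimum in 1 group only, such as Arg1, entered these counts through the side where they were high. All of these values compare 1 library with another, so treatment, animal and library preparation cannot be told apart.

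PCL against saline, which shares its saline cells with the comparison above, gave 64 of 668 genes higher (9.58%) and 42 lower (6.29%). Arg1 stood at 1105 CPM in PCL RP2 cells and 19.4 CPM in saline RP2 cells. Hmox1, the haem-degrading enzyme, stood at 1242 against 179 CPM (6.93-fold, 4.95 to 9.98) and Pdpn, podoplanin, at 316 against 38.8 CPM. Ppbp, a platelet chemokine, had 183 UMIs against 1, with 43.2% of the PCL UMIs in 1 cell (110.4-fold, 19.6 to 4384). Of 12 glycolysis and hypoxia genes 9 were at least 1.5-fold higher (median 0.92, with 21.4% of genes called higher), and all 6 class II genes were lower (median -2.47, with 15.1% called lower). Sepp1, the selenium carrier, stood at 1134 CPM in PCL and 5260 CPM in saline RP2 cells.

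PCL against UBM gave 33 of 651 genes higher (5.07%) and 22 lower (3.38%), or 27 and 33 with trimmed-mean scaling, which moved the median gene from 0.07 to -0.11. The fungal pattern receptor Clec4n stood at 324 CPM in PCL RP2 cells and 11.9 CPM in UBM RP2 cells (27.4-fold, 19.2 to 39.5), the transcription factor Cebpb at 1969 and 263 CPM (7.49-fold, 6.79 to 8.27), and Il1rn, the interleukin-1 receptor antagonist, at 307 and 34.0 CPM. Spp1, osteopontin, stood at 7480 and 1922 CPM (3.89-fold, 3.72 to 4.07). Retnla gave 1 UMI in all 58 PCL RP2 cells and 7911 UMIs in UBM RP2 cells, a ratio of 0.00143 (3.63e-05 to 0.00799), and the metallothionein Mt2 stood at 158 against 967 CPM. Of 18 glycolysis and hypoxia genes 10 were lower and none higher (median -0.63, with 8.86% of genes called lower), while 4 of 4 class II genes were higher (median 1.09, with 16.4% called higher). Trem2 stood at 853 CPM in PCL RP2 cells and 1279 CPM in UBM RP2 cells, and Lpl at 1546 and 1894 CPM, neither past 2-fold.

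How firmly the cells belong to 1 cluster was described by asking which cluster's summed profile, without the cell itself, gave its counts the highest likelihood. Of the 640 UBM cells 455 fitted the RP2 profile best (71.1%), 140 the RP1 profile and 18 the R1 profile, and 101 of 1640 other UBM cells fitted RP2 best. With the profiles of the whole series, 44 of 58 PCL RP2 cells fitted FP1 best and 26 of 38 saline RP2 cells fitted R3 best. When profiles were built within each library and without the 7 markers, 456 of 640 UBM cells, 32 of 58 PCL cells and 22 of 38 saline cells fitted RP2 best. Assignment of the PCL and saline cells to RP2 thus depended on which cells the profiles were built from.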

How the data were processed

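Macrophage libraries made with droplet-based 3' chemistry were deposited by the authors as 1 table of raw counts (UMIs per gene and cell), with a table that gives each cell's library and cluster. Per the submitters' processing notes, Cell Ranger and Seurat 2 were used and the build was hg38, although the gene symbols are mouse; its settings were given by neither labels nor headers. Per the series' design text, the cells of the 3 libraries were pooled, normalised, scaled and clustered on a nearest-neighbour graph. Cluster names were taken as deposited, no doublet caller was run here, and how doublets were treated before deposit is not given in the sources used here. Library names in the table were matched to the treatments by meaning, and 0 columns were left unmapped.

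UMIs were summed per group and divided by the group's total (CPM). Ratios have exact conditional binomial intervals, levels exact Poisson intervals and shares exact Clopper-Pearson intervals, all at 95%. Depth was 3881142, 342224 and 206448 UMIs of RP2 in UBM, PCL and saline. List members were counted at 1.5-fold with at least 10 CPM on the higher side, or 100 CPM where saline or PCL cells were compared. The members and the 22 gene lists and 13 marker lists were chosen with earlier results of these data known. Named genes are the 7 markers, the 15 highest and 15 lowest against other UBM cells, the 5 highest and 5 lowest against each alike cluster, the 8 highest and 8 lowest of each treatment comparison, and members of the lists; of the library comparisons and the overlaps between libraries, genes were named after their values were seen. A list median was taken as moved past 0.10 on the log2 scale, and as changed in sign only if it was at least that far from 0. Alternatives covered scaling, minimum, pseudocount, cell filters and cluster membership. Computation used Python 3.11.15, numpy 2.4.6, scipy 1.17.1, pandas 2.3.3, matplotlib 3.10.9, R 4.3.3 and edgeR 4.0.16 (trimmed-mean scaling only), checked on simulated data. Values of 1 list member are not reported here.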

Additional observations from a re-analysis of the deposited data

Results flagged for a closer look

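Folr2 and Ifi27l2a were picked out because RP2 lay above the other cells in 1 library and below them in another, past 1.5-fold on both sides. The ratio of Folr2, the folate receptor, in RP2 over other cells was 1.67 in UBM (777 against 467 CPM, 1.59 to 1.74), 2.53 in PCL (435 against 172 CPM, 2.13 to 2.99) and 0.565 in saline (203 against 360.3 CPM, 0.403 to 0.772). The saline value rests on 42 RP2 UMIs, 14.3% of them from 1 cell. For Ifi27l2a, an interferon-inducible gene, the ratio was 2.30 in UBM (3365 against 1462 CPM, 2.25 to 2.36) and 0.622 in saline (1298 against 2089 CPM, 0.547 to 0.704), with 19.8% of the saline RP2 UMIs from 1 cell. Outside the genes named by rule, 3 more genes lay on opposite sides and were named after their values were seen. The ratio for Cxcl2 was 1.57 in UBM (2866 against 1828 CPM) and 0.553 in PCL (1449 against 2622 CPM). For Pid1 it was 1.55 in UBM (233 against 150.5 CPM) and 0.613 in PCL (210.4 against 343 CPM), and for the selenium carrier Sepp1 0.590 in UBM (1302 against 2207 CPM) and 1.91 in saline (5260 against 2749 CPM). With 1 library per treatment these differences were not tested.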

How the results depend on the processing

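No paired analysis was possible because each treatment has 1 library and no result comes from a test. Precision is limited by the 58 PCL and 38 saline RP2 cells. Of 2884 values for named genes, 2374 moved by no more than their interval's reach to either side and 509 moved further. Another 1, past the fold used for calling as reported, changed sign. Sign changes of smaller ratios were counted by the size of the move only. Of 2612 list medians, 2048 moved little on the log2 scale, 538 moved further and 26 of the larger ones changed sign. The causes were not tested. Below, pairs are higher then lower counts.

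With 4 times the minimum CPM the counts were 26 and 58 for RP2 against other UBM cells, 34 and 93 against all other cells, 21 and 20 against saline cells, 14 and 14 against PCL cells, 68 and 62 against RP1, 70 and 79 against R1, 99 and 117 against R3, 27 and 14 for UBM against saline within RP2, 20 and 8 for PCL against saline, and 6 and 7 for PCL against UBM. With no minimum, 320 genes were lower against other UBM cells and 513 against all other cells, and the pairs were 936 and 1953 against saline cells, 379 and 1162 against PCL cells, 403 and 349 against RP1, 367 and 516 against R1, 529 and 640 against R3, 460 and 398 for UBM against saline, 663 and 497 for PCL against saline, and 209 and 189 for PCL against UBM. A pseudocount of 50 CPM gave 31 and 95 against other UBM cells, 39 and 130 against all other cells, 111 and 103 against RP1, 108 and 124 against R1, and 163 and 188 against R3.

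Against all other cells, 147 genes were higher with median-of-ratios scaling, 146 with trimmed-mean scaling and 129 without ribosomal protein genes and Malat1 in the total. Trimmed-mean and median-of-ratios scaling turned the median of the Trem2 and Tyrobp list in UBM against saline to 0.050 and 0.047. Leaving out F2 and R3 put RP2 at 30.5% of UBM cells. Membership by profile put it at 24.4% of UBM, 0.685% of PCL and 1.47% of saline cells, and at 24.5%, 0.742% and 1.47% without the 7 markers; the last gave 59 and 148 genes against PCL cells, a Lpl log2 ratio of -0.29 there, and medians in PCL against UBM of -0.13 for the vacuolar ATPase, -0.043 for osteoclast, -0.19 for dead-cell clearance, -0.40 for ER stress and -0.056 for complement and Fc genes. Saline comparisons could not be made under it, with fewer than 10 cells.

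Membership by profile within each library, chosen after seeing the data, put RP2 at 23.2% of UBM and 4.56% of PCL cells. It gave 55 higher genes against PCL cells and 52 in PCL against UBM, and turned the medians of cell cycle genes to -0.31 against all other cells and -0.064 against R3, of osteoclast genes to 0.15 and resident genes to -0.076 against PCL cells, of inflammatory genes to -0.37 and ER stress genes to -0.23 in UBM against saline, and of the lipid-associated signature to 0.27, interferon genes to -0.029 and resident genes to -0.19 in PCL against saline. Without RP2 cells of over 3 times the median UMIs, also chosen after seeing the data, the signature was 0.12 in UBM against saline and 0.091 in PCL against saline, where resident genes were -0.022. With each cell counted alike, the signature was 0.11 and inflammatory genes -0.034 in UBM against saline; the signature was 0.033, interferon genes -0.18 and resident genes -0.15 in PCL against saline; and cell cycle genes were 0.084 in PCL against UBM. With the other clusters weighted equally, resident genes were -0.49 against PCL cells.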

Other observations

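Several lists in UBM RP2 cells had members called in both directions, beside 1.39% of all genes above 10 CPM called higher and 4.15% called lower. Of 16 measured inflammatory cytokines and chemokines, Tnf (22.7 against 10.8 CPM), Cxcl1 and the neutrophil chemokine Cxcl2 (2866 against 1828 CPM) were higher in RP2 than in other UBM cells, while 5 were lower, among them Il1b (39.4 against 127 CPM). Of 20 interferon response genes, Ifi27l2a was higher and 9 were lower, with a list median of -0.48. Of 15 complement and Fc receptor genes, the anaphylatoxin receptors C3ar1 (732 against 387 CPM) and C5ar1 were higher, and C3 and the inhibitory receptor Fcgr2b (393 against 832 CPM) were lower. Of 15 growth factors, Gdf3 was higher (52.3 against 25.6 CPM) and Hbegf was lower (43.5 against 136 CPM).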
